A study of Mus musculus with 16 samples.

Results

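The genes described here are cholesterol biosynthesis genes of the mouse brain, *Hmgcs1*, *Idi1*, *Fdft1*, *Sqle*, *Lss*, *Cyp51*, *Dhcr7* and *Insig1*, 8 genes in all. Values were read for 7 of them among the 37583 genes of the files, while for *Hmgcs1* expression was not analysed here and only the promoter is shown. They were chosen by the measured values themselves, since *Cyp51* parts the 2 genotypes in both brain regions under the names of the count files, so their differences between genotypes are given below as a description with no test. The comparison of cerebellum with cortex did not enter that choice and was tested, though members and lists were chosen with earlier results of these data known. Both cortex and cerebellum were sequenced from 8 mice, 4 of them wild type and 4 carrying the A391T variant of *Slc39a8*, which encodes a metal ion transporter. This gave 16 libraries, each from 1 region of 1 mouse. All 8 mice had the C57BL/6J background, and the labels also give the variant as A393T. The wild-type mice were male and 12 weeks old by the study's methods, whereas the age of the A391T mice, their zygosity and the way the allele was made are not given in the sources used here.

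Cholesterol does not cross the blood-brain barrier in useful amounts, so the brain makes its own, mostly in oligodendrocytes and astrocytes in the adult. Acetyl-CoA is built into mevalonate and isoprenoid units, which are joined to squalene, closed to the ring of lanosterol and then demethylated and reduced to cholesterol. The transcription factor SREBP-2 raises the genes of the whole route when sterols are scarce, and Insig proteins hold it in the endoplasmic reticulum when sterols are plentiful.

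The promoters of these genes carry short motifs known to be bound together with SREBP-2, and 4 are printed to show what these letters look like in the gene that chose the list, in the enzyme whose level was most like it, in an early enzyme of the route and in its regulator. They are the 250 bases before the transcription start in RefSeq on GRCm38.p6, 5′ to 3′ on the strand of the gene, with the letters of a motif on either strand in capitals. *Cyp51* (chr5:4104698-4104947, minus strand) is the gene that chose the list, *Msmo1* (chr8:64733579-64733828, minus strand) is the synthesis enzyme whose level followed it most closely, *Hmgcs1* (chr13:119690101-119690350, plus strand) encodes the synthase that makes HMG-CoA, and *Insig1* (chr5:28071162-28071411, plus strand) is the regulator.
Cyp51: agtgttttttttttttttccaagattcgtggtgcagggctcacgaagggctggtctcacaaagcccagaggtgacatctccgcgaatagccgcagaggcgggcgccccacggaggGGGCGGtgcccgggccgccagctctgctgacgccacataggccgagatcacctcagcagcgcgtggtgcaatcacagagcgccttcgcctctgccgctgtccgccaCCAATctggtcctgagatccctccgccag
Msmo1: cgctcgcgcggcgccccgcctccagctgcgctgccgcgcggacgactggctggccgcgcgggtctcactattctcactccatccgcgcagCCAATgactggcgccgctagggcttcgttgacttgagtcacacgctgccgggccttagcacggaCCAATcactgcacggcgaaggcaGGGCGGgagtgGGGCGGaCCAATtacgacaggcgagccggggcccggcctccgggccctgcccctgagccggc
Hmgcs1: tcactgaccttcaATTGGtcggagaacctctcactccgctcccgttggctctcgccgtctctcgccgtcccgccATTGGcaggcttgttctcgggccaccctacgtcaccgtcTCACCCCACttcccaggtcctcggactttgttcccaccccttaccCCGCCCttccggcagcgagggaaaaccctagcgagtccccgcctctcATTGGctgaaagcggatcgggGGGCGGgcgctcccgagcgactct
Insig1: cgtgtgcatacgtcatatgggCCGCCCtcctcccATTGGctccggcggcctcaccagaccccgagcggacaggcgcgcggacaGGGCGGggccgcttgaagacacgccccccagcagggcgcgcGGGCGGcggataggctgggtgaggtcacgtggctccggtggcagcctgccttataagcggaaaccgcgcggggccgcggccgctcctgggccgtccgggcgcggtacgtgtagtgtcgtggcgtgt
The motif CCAAT, the box bound by NF-Y, occurred in 6 of the 6 listed genes with a RefSeq promoter and in 37.5% of all genes with one. The motif GGGCGG, the GC box bound by Sp1, also occurred in 6 of 6, against 35.4% of all genes. The sterol regulatory element was searched in a single spelling, TCACNCCAC, which was found in 1 of 6, *Hmgcs1*, against 1.22% of all genes. Other spellings of the element were not searched, so a promoter without this match may still hold the element. Each motif was searched on both strands, and CCAAT read on the other strand can share bases with GGGCGG. *Idi1*, *Lss* and *Dhcr7* are the others with a promoter in the table, and *Fdft1* and *Sqle* have none there. Together with other enzymes of the route, 15 of 16 genes held a CCAAT and 15 of 16 a GGGCGG. A match is a run of letters and not a measured binding site.

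Reads counted on genes ranged from 20813432 to 30497206 per library, with a median of 24488842. For 4 mice, or 8 libraries, the count files and the RPKM table (counts per length and depth) disagree on the genotype: the count files' wild-type mice 1 and 2 are A391T mice in the table, and A391T mice 3 and 4 are wild-type mice there. The 2 regions of a mouse are named alike within each source. Values below use the count-file names unless the table is named. Dissection matched the labels, since the summed level of 6 cortex markers was 437 to 489 TPM (a per-length unit in which counts are taken per base of gene and every library has an equal sum) in cortex and 30 to 40.0 TPM in cerebellum, and that of 7 cerebellum markers was 122 to 149 TPM in cortex and 3990 to 4490 TPM in cerebellum. Choroid plexus RNA differed widely between cerebellum libraries, as given below. The variant changes 1 residue of the protein, so the level of *Slc39a8* is no direct check of the genotype. Under the names of the count files it was 1.63 to 2.75 TPM in wild-type and 1.98 to 2.79 TPM in A391T cortex, and 2.46 to 3.16 TPM and 2.39 to 2.79 TPM in cerebellum, which overlap in both regions. Under the names of the table it was 1.63 to 2.38 TPM in wild-type and 2.52 to 2.79 TPM in A391T cortex, and 2.39 to 2.61 TPM and 2.70 to 3.16 TPM in cerebellum, which overlap in neither. The cerebellum library of A391T mouse 1 stood apart from the other 3 of its group: without it the genes called between regions in A391T mice rose from 10056 to 11797.

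Taken over both genotypes, cortex held more RNA than cerebellum for the 5 listed enzymes that make squalene and turn it into sterols. For *Lss* this rests on the A391T mice. Its wild-type means lay close together, 13.4 against 13.7 TPM (cortex first), and the wild-type log2 fold change of -0.12 was not called. Over all 8 mice, 5 of the 7 measured genes were lower in cerebellum by the quasi-likelihood test of edgeR, at 0.05 after Benjamini-Hochberg adjustment, namely *Fdft1*, *Sqle*, *Cyp51*, *Dhcr7* and *Lss*, and none was higher. Of all 16254 genes tested, 35.6% were lower in cerebellum by the same rule, 39% were higher and 74.6% were called in either direction. The median log2 fold change, cerebellum over cortex, was -0.38 over the 7 genes and 0.04 over all genes tested. With at least a 2-fold difference as well, 2 of the 7 were lower, *Fdft1* and *Sqle*, against 14.5% of all genes. In whole-tissue RNA, fewer cells of a type and less RNA per cell cannot be told apart, and p-values measure the spread between mice sampled once per region.

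**Figure D1:**
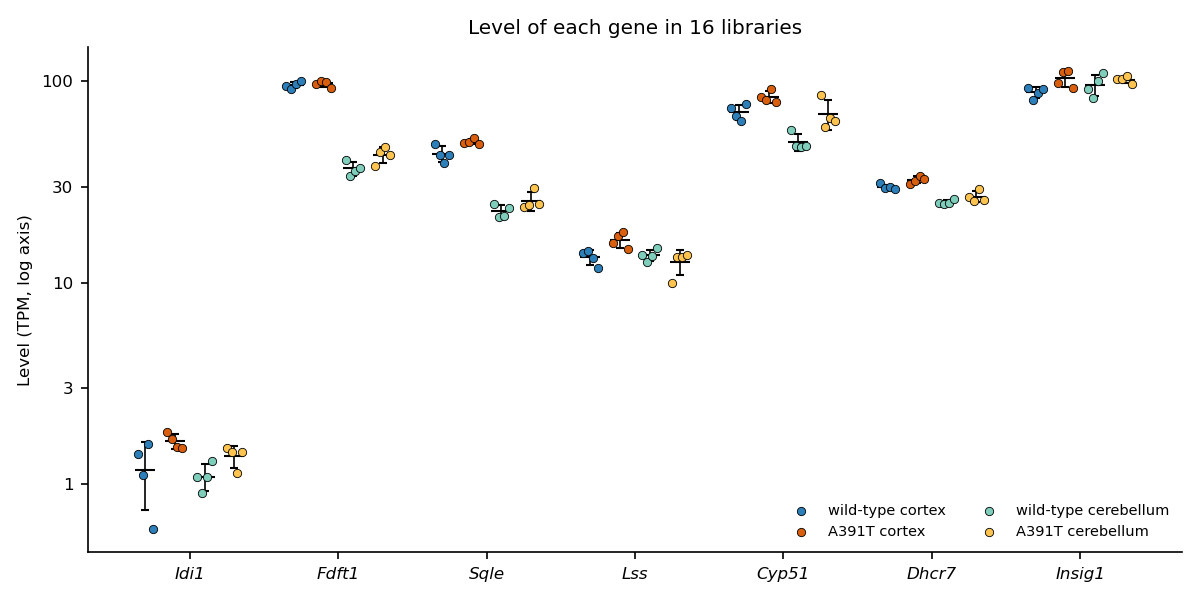
Level of the 7 measured genes in each of the 16 libraries, in TPM on a log axis, by region and genotype under the names of the count files, with points for libraries and bars for group means and SD. *Fdft1* and *Sqle* sit lower in all 8 cerebellum libraries than in any cortex library, and *Idi1* lies below the other 6 genes in every library. The levels of *Idi1* and *Fdft1* are uncertain for the copies of their sequences.

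*Fdft1* encodes squalene synthase, which joins farnesyl units into squalene and is the first step committed to sterols. Its level in wild-type cortex was 95.3, 92.0, 96.6 and 100 TPM in mice 1 to 4, and in wild-type cerebellum 40.9, 33.9, 36.1 and 37.0 TPM. In A391T mice it was 97.3, 101, 99.5 and 92.9 TPM in cortex and 37.9, 44.8, 47.0 and 43.1 TPM in cerebellum. The regions did not overlap in either genotype, and all 8 mice had the higher level in cortex. The log2 fold change was -1.53 ± 0.07 (SE, adjusted p = 6.4e-09) in wild-type mice, -1.28 ± 0.06 (adjusted p = 6.1e-08) in A391T mice and -1.40 ± 0.05 (adjusted p = 3.5e-14) over all mice. *Fdft1* (ENSMUSG00000021273) lies on the minus strand of chr14:63763990-63796630 of NCBIM37, where *Ctsb* on the opposite strand covers 26.9% of its exon bases, and a copy on the same chromosome matches 97.4% of the bases over 56.3% of its sequence, so its level is uncertain.

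*Sqle* encodes squalene epoxidase, which adds the oxygen from which the sterol ring is closed. The 4 wild-type cortex libraries held 48.9, 43.1, 39.3 and 43.0 TPM and the 4 wild-type cerebellum libraries 24.5, 21.3, 21.5 and 23.4 TPM. A391T cortex held 49.5, 50, 52.5 and 48.9 TPM and A391T cerebellum 23.7, 24.3, 29.5 and 24.6 TPM. The lowest cortex library, at 39.3 TPM, exceeded the highest cerebellum library, at 29.5 TPM. Cerebellum over cortex, the log2 fold change was -1.10 ± 0.08 (adjusted p = 4.9e-07) in wild-type mice and -1.08 ± 0.07 (adjusted p = 6.7e-07) in A391T mice. *Sqle* (ENSMUSG00000022351) lies on the plus strand of chr15:59146632-59162747.

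*Lss* encodes lanosterol synthase, the cyclase that closes the ring. Wild-type libraries had 14.0, 14.4, 13.3 and 11.9 TPM in cortex and 13.7, 12.7, 13.6 and 14.9 TPM in cerebellum, which overlap. A391T libraries had 15.8, 17.0, 17.8 and 14.7 TPM in cortex and 10.0, 13.5, 13.5 and 13.8 TPM in cerebellum, which do not. Between regions the log2 fold change was -0.12 ± 0.07 (adjusted p = 0.16) in wild-type mice, -0.47 ± 0.09 (adjusted p = 0.0011) in A391T mice and -0.29 ± 0.07 (adjusted p = 0.0011) over all mice. Without the cerebellum library of A391T mouse 1 the fold change in A391T mice was -0.39 and over all mice -0.24, both still called. Its call over all mice is lost with only the 4 mice named alike in both sources (log2 -0.26, adjusted p = 0.11), 2 of each genotype. *Lss* (ENSMUSG00000033105) lies on the plus strand of chr10:75994333-76019883, with 3.5% of its exon bases under an opposite-strand lincRNA.

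*Cyp51* encodes lanosterol 14-alpha-demethylase, the first enzyme after ring closure. In wild-type mice it stood at 73.7, 67.2, 63.3 and 77.2 TPM in cortex and at 57.3, 47.7, 47.5 and 47.7 TPM in cerebellum. In A391T mice it stood at 83.6, 80.7, 91.5 and 78.6 TPM in cortex and at 86.0, 59.6, 66.0 and 63.6 TPM in cerebellum. The regions did not overlap in wild-type mice and did so in A391T mice, where mouse 1 had the higher level in cerebellum. The log2 fold change between regions was -0.64 ± 0.09 (adjusted p = 8.7e-05) in wild-type mice, -0.37 ± 0.14 (adjusted p = 0.035) in A391T mice and -0.50 ± 0.09 (adjusted p = 9e-05) over all mice. Without the cerebellum library of A391T mouse 1 it was -0.54 (adjusted p = 3.2e-06) in A391T mice. Within A391T mice it is called by 8 of 18 alternatives, whose adjusted p ran from 3.2e-06 to 0.48, while in wild-type mice it is called by 18 of 18. *Cyp51* (ENSMUSG00000001467) lies on the minus strand of chr5:4081145-4104746, with no overlapping exon of another gene.

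*Dhcr7* encodes 7-dehydrocholesterol reductase, which makes cholesterol in the last step of 1 branch of the route. Wild-type mice had 31.2, 29.4, 29.8 and 29.3 TPM in cortex and 24.8, 24.5, 25.0 and 26.1 TPM in cerebellum. A391T mice had 30.9, 32.2, 34.1 and 32.8 TPM in cortex and 26.6, 25.6, 29.3 and 25.7 TPM in cerebellum. The difference was small and even, with every cerebellum library under every cortex library of either genotype on the TMM scale, which corrects library totals for composition. Its log2 fold change was -0.41 ± 0.06 (adjusted p = 7.6e-05) in wild-type mice and -0.38 ± 0.07 (adjusted p = 0.0013) in A391T mice. *Dhcr7* (ENSMUSG00000058454) lies on the plus strand of chr7:151009050-151034315.

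*Insig1*, whose protein holds the SREBP escort Scap in the endoplasmic reticulum, is the 1 regulator on the list and did not pass the test in either genotype. Its level was 92.7, 81.0, 87.5 and 91.7 TPM in wild-type cortex and 92.1, 83.2, 100 and 110 TPM in wild-type cerebellum. A391T mice had 98.7, 112, 113 and 92.5 TPM in cortex and 103, 103, 106 and 97.1 TPM in cerebellum. The groups overlap, 3 of 8 mice were higher in cortex in TPM and 5 of 8 on the TMM scale, and the log2 fold change over all mice was -0.07 ± 0.06 (adjusted p = 0.32). *Insig1* (ENSMUSG00000045294) lies on the plus strand of chr5:28397952-28405201.

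*Idi1* encodes isopentenyl diphosphate isomerase, which balances the 2 isoprenoid units, and was close to the limit of what these libraries can measure. It had 10 to 34 counts per library, or 0.596 to 1.81 TPM in cortex and 0.899 to 1.52 TPM in cerebellum. The log2 fold change over all mice was -0.29 ± 0.16 (adjusted p = 0.11), and it is called only without the cortex library of wild-type mouse 4 (log2 -0.37, adjusted p = 0.018). A copy of *Idi1* on chromosome 2 matches 99.3% of its bases over 86.5% of its length, and reads that match both would not be uniquely aligned, so the level is uncertain. *Idi1* (ENSMUSG00000058258) lies on the plus strand of chr13:8884852-8891641.

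Calls within a genotype numbered 4 of 7 in wild-type mice, where 33.1% of 16040 genes were lower in cerebellum, and 5 of 7 in A391T mice, where 31.3% of 16005 genes were. With the 2-fold criterion 2 of 7 were called in each, against 14.2% and 14.9% of all genes. The gene called in 1 genotype alone is *Lss*. Across the table, the region difference differed between the genotypes for 0% of the 16589 genes tested by edgeR (805 at an unadjusted p under 0.05, and 1578 under the table's names) and for 1 gene by DESeq2 (818 unadjusted). For the listed genes this interaction is made of the genotype differences that chose them, so it is given with no test. It was -0.33 ± 0.12 (SE) on the log2 scale for *Lss*, 0.26 ± 0.09 for *Fdft1* and 0.29 ± 0.18 for *Cyp51*, and 0.11 for *Cyp51* without the cerebellum library of A391T mouse 1. Under the table's names it was -0.18 for *Lss*, 0.022 for *Fdft1* and 0.26 for *Cyp51*. The last value includes the cerebellum library of A391T mouse 1 and was not refitted without it under these names. On TMM-scaled CPM, which scales counts to an equal library size and does not divide by length, *Fdft1*, *Sqle* and *Dhcr7* had all 8 cortex libraries above all 8 cerebellum libraries, 3 of 7 against 23.3% of all genes. Scaling to library totals in place of TMM moved the median log2 fold change of all genes from 0.04 to 0.15, and the 5 genes called over all mice were below 0 under each of 25 alternatives run.

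**Figure D2:**
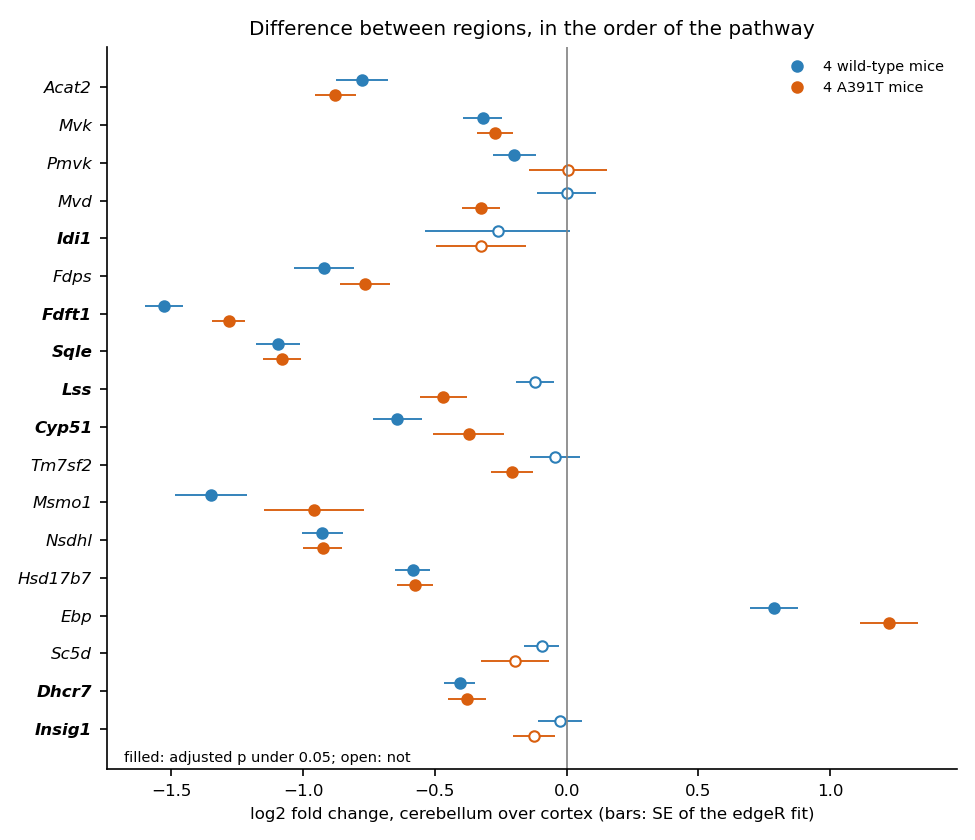
Difference between regions, log2 of cerebellum over cortex, for the 7 measured genes (bold) and other synthesis enzymes, with 1 point for the 4 wild-type and 1 for the 4 A391T mice, the standard error of edgeR's fit as bars and filled points for an adjusted p under 0.05. *Fdft1* and *Sqle* lie left of -1, *Insig1* and *Idi1* have open points, and *Ebp* lies to the right of 0.

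Divided by the gene lengths of the deposited table, the genes fell into an order that differed between the regions: *Fdft1* stood at or near the top in cortex and below *Cyp51* in cerebellum. In cortex the means over 8 libraries were 96.9 ± 3.36 TPM (SD) for *Fdft1*, 96.1 ± 11.2 for *Insig1*, 77.0 ± 8.99 for *Cyp51*, 46.9 ± 4.53 for *Sqle*, 31.2 ± 1.72 for *Dhcr7*, 14.9 ± 1.93 for *Lss* and 1.40 ± 0.384 for *Idi1*. Each neighbour in that order differed by an exact two-sided sign-flip test of the ratio within libraries (adjusted p = 0.00937, at the smallest raw p that 8 libraries allow, 0.00781), except that *Fdft1* and *Insig1* were not told apart (ratio 1.013, exact p = 0.695). In cerebellum the order was *Insig1* at 99.3 ± 8.47 TPM, *Cyp51* at 59.4 ± 13.0, *Fdft1* at 40.1 ± 4.59, *Dhcr7* at 25.9 ± 1.54, *Sqle* at 24.1 ± 2.53, *Lss* at 13.2 ± 1.42 and *Idi1* at 1.24 ± 0.22. *Dhcr7* and *Sqle* were the closest pair there, with *Dhcr7* higher in 7 of 8 libraries (ratio 1.08, exact p = 0.0156, adjusted p = 0.017). In all, 11 of 12 neighbouring pairs differed. The places of *Idi1* and *Fdft1* are uncertain, for the copies of their sequences and the *Ctsb* overlap given above. The order also depends on those lengths. The table gives *Sqle* 6583 bases and *Dhcr7* 4145, where the exons of the NCBIM37 annotation cover 5546 and 3784, so the order of these 2 genes in cerebellum is uncertain. In CPM, with no division by length, *Sqle* stood above *Dhcr7* and *Cyp51* above *Fdft1* by their means in both regions.

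Other enzymes of the route were lower, higher or not called. Of 13 other synthesis enzymes, 8 were lower in cerebellum over all mice, beside 35.6% of all genes, 1 was higher and 4 did not pass, with a median log2 fold change of -0.57. *Msmo1* (*Sc4mol* in the files), the methyl sterol oxidase that acts after *Cyp51*, had 47.1 against 23.2 TPM (cortex first, log2 -1.14, adjusted p = 3e-07). *Ebp*, the sterol isomerase, went the other way with 29.2 TPM in cortex and 64.2 TPM in cerebellum (log2 1.01 ± 0.09, adjusted p = 8.4e-09).

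Among 12 regulators and uptake genes of the SREBP pathway, 5 were higher in cerebellum, 3 lower and 4 did not pass, beside 39% higher and 35.6% lower of all genes, shares near those of the list. *Srebf2*, which encodes SREBP-2, had 296 against 161 TPM (cortex first, log2 -0.998). *Nr1h3*, which encodes the oxysterol receptor LXR-alpha, was higher in cerebellum at 22.1 against 4.65 TPM (log2 2.13), as was the sterol carrier *Stard4* at 42.3 against 26.7 TPM (log2 0.55). Of 12 genes for turnover, transport and export, 5 were higher, 4 lower and 3 did not pass, near the same shares. *Cyp46a1*, the neuronal hydroxylase by which the brain sheds cholesterol, had 526 against 95.5 TPM (log2 -2.58), and *Cyp7b1*, an oxysterol hydroxylase, 19.5 against 11.7 TPM (log2 -0.85). *Lcat*, which esterifies cholesterol on lipoproteins, was higher in cerebellum at 232 against 55.4 TPM (log2 1.95), as was *Cyp27a1*, the mitochondrial sterol hydroxylase, at 44.5 against 11.6 TPM (log2 1.83). Fatty acid synthesis, the branch under SREBP-1, showed 3 of 9 genes higher, 3 lower and 3 not passing, near the same shares, with *Acacb* at log2 1.08, *Fasn* at -0.62, *Elovl6* at 0.58 and *Elovl5* at 0.47.

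Markers of the cells that make cholesterol did not move as 1 group between the regions, and their counts are to be read beside the 39% of all genes that were higher in cerebellum and the 35.6% that were lower. Of 10 oligodendrocyte markers, 2 were higher in cerebellum, 3 lower and 5 did not pass, and their summed level was 4390 to 5160 TPM in cortex and 4070 to 6250 TPM in cerebellum. Of 10 astrocyte markers, 7 were higher in cerebellum, 2 lower and 1 did not pass. All 6 microglia markers were lower in cerebellum, with sums of 413 to 495 against 126 to 169 TPM, and all 6 choroid plexus markers were higher, with sums of 8.12 to 49.6 against 43.6 to 8110 TPM. Within cerebellum the choroid plexus sum ran from 44.1 to 8110 TPM in wild-type and from 43.6 to 5830 TPM in A391T libraries. Among 5 neuron markers 2 were higher and 3 lower, among 5 endothelial markers 1 was lower, and of 5 blood markers 0 were called. The part of these cell types in the differences of the synthesis genes was not tested.

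Between genotypes, *Cyp51* was the gene by which the list was chosen, under the names of the count files. On TMM-scaled CPM its lowest A391T cortex library lay just above its highest wild-type one, at 87.2 against 86.2, and in cerebellum at 59.9 against 57.8. Its TPM mean was 70.3 ± 6.25 (SD, n = 4) in wild-type and 83.6 ± 5.65 in A391T cortex, and 50.1 ± 4.83 in wild-type and 68.8 ± 11.7 in A391T cerebellum. The log2 fold change of A391T over wild type was 0.23 ± 0.08 in cortex and 0.52 ± 0.15 in cerebellum, and 0.35 in cerebellum without the library of A391T mouse 1. Under the names of the RPKM table it was -0.04 ± 0.10 in cortex and 0.23 ± 0.21 in cerebellum. The groups overlap in both regions. In TMM-scaled CPM by these names, A391T mouse 1 held 96.1 in cerebellum, the other A391T libraries 48.5 to 59.9 and wild type 46.5 to 66.1. Scaled to library totals, the cortex groups of *Cyp51* overlap under the count-file names too, with 87.5, 83.9, 95.5 and 83.9 CPM in A391T mice and 78.7, 68.8, 65.3 and 86.7 in wild-type mice. By count-file names, edgeR called 2 of 15815 genes between genotypes in cortex and 0 of 15668 in cerebellum, at an adjusted p under 0.05. By the table's names 0 genes were called in either region.

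**Figure D3:**
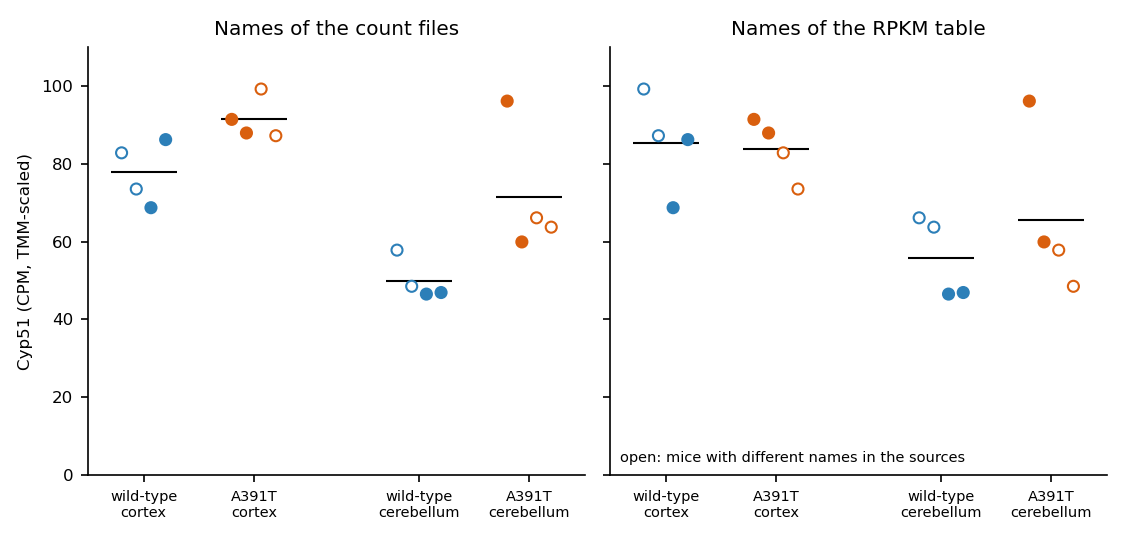
Level of *Cyp51* in each library, in CPM on the TMM scale, not divided by length, by region, with the genotype of the count files on the left and that of the RPKM table on the right, lines for group means and open points for mice named differently. The groups are apart by about 1 unit in cortex and 2 in cerebellum under the count-file names and overlap under the names of the table.

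The other listed genes are given for the same contrast, which the choice of the list used. With A391T above wild type in every library, cortex had 2 of the 7, *Lss* and *Cyp51*, beside 1.82% of all genes, cerebellum had 3, *Fdft1*, *Cyp51* and *Dhcr7*, beside 4.03%, and both regions had *Cyp51* alone, beside 0.166% or 27 genes. Scaled to library totals, *Lss* alone was apart in cortex, beside 1.88% of all genes, and *Cyp51* alone in cerebellum, beside 4.01%. No listed gene was apart in both on that scale, beside 0.135%. Under the names of the table no listed gene was apart in cortex, where 1.68% of genes were, in cerebellum, where 3.28% were, or in both, where 0.0369% were. Fitted log2 fold changes under the count-file names ran from 0.0046 for *Fdft1* to 0.44 for *Idi1* in cortex, all 7 above 0 as were 50.1% of all genes, and from -0.06 for *Lss* to 0.52 for *Cyp51* in cerebellum, 6 of 7 above 0 as were 51.4% of all genes. In cerebellum under these names oligodendrocyte markers had 9 of 10 fitted values above 0 with a median of 0.288, against 0.224 for the listed genes, and blood markers 5 of 5 with a median of 0.16. Under the table's names the medians were 0.093 for oligodendrocyte markers, 7 of 10 above 0, and -0.288 for blood markers, 2 of 5 above 0. In cortex under the count-file names 6 of 10 oligodendrocyte markers and 0 of 5 blood markers were above 0. Summed, oligodendrocyte markers were at 4070 to 5790 TPM in wild-type and 4580 to 6250 TPM in A391T cerebellum, and their part in the genotype values was not tested. *Insig1* had 0.21 ± 0.08 in cortex and 0.14 ± 0.08 in cerebellum, and *Sqle* 0.18 ± 0.07 and 0.22 ± 0.08. *Idi1*, the highest in cortex at 0.44, had 10 counts in the library of wild-type mouse 4 and 25 to 34 in the other cortex libraries. Under the table's names 3 of 7 were above 0 in cortex and 4 of 7 in cerebellum, with medians of -0.012 and 0.002 in place of 0.215 and 0.224. *Lss* differed from the rest in cerebellum, where its A391T values included the lowest of all 16 libraries, 10.0 TPM in mouse 1.

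**Figure D4:**
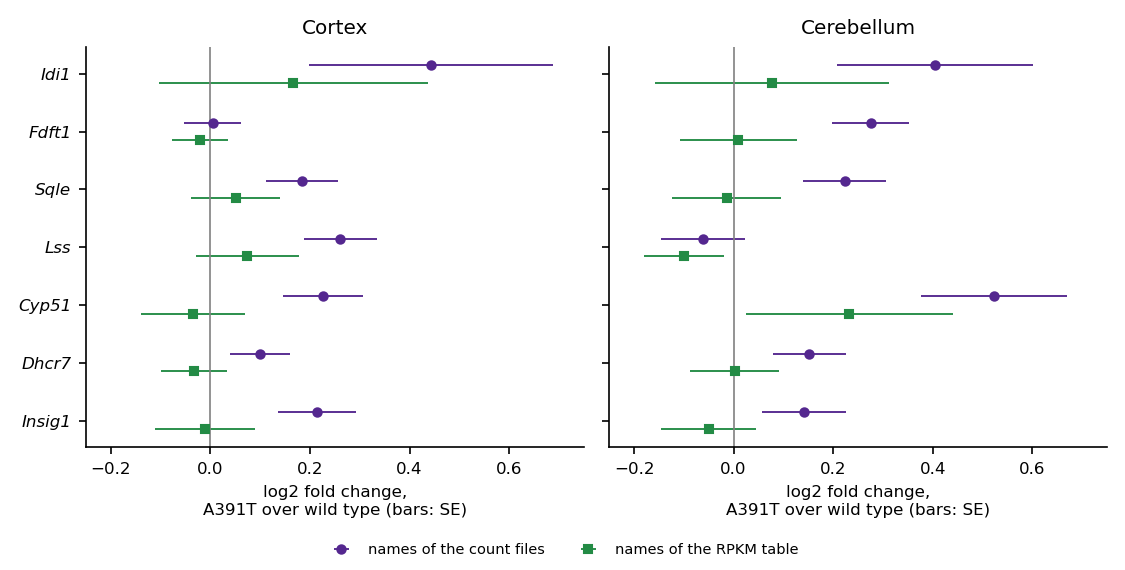
Difference between genotypes, log2 of A391T over wild type with the standard error of edgeR's fit as bars, for the 7 measured genes in each region under both sets of names. Under the count-file names the medians are 0.215 in cortex and 0.224 in cerebellum, and under the table's names they are -0.012 and 0.002.

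Summed over the 7 genes, wild-type cortex held 328 to 357 TPM and A391T cortex 362 to 410 TPM, and wild-type cerebellum 224 to 260 TPM against 269 to 292 TPM, which do not overlap under the count-file names. These sums hold *Cyp51*, whose values chose the list. Without it the other 6 genes summed to 261 to 283 TPM in wild-type and 283 to 319 TPM in A391T cortex, which meet, and to 176 to 213 TPM and 202 to 226 TPM in cerebellum, which overlap. With *Cyp51* and under the table's names the sums were 331 to 410 against 328 to 395 TPM in cortex and 245 to 292 against 224 to 288 TPM in cerebellum, which overlap. The 13 other enzymes summed to 651 to 728 TPM in wild-type and 734 to 764 TPM in A391T cortex, and to 509 to 544 and 547 to 586 TPM in cerebellum, and under the table's names both regions overlap. Immediate early genes, which neurons switch on within minutes of activity, also differ with the names. The 10 genes summed to 915 to 1330 TPM in wild-type and 1390 to 2010 TPM in A391T cortex, and to 274 to 518 and 353 to 698 TPM in cerebellum, where they overlap. Under the table's names, with wild type again first, they summed to 1010 to 2010 and 915 to 1570 TPM in cortex and to 351 to 698 and 274 to 377 TPM in cerebellum, overlapping in both regions. Their part in the genotype values of the synthesis genes was not tested. *Slc39a8*, by contrast, is apart in both regions under the table's names and not under those of the count files, with A391T higher, as are 0.0369% of all genes or 6 genes. Which set of names is right was not settled here.

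The variation of *Cyp51* among libraries of a region, read with no genotype names, was shared to a differing degree with the other listed genes. Pearson's r with *Cyp51* across the 16 libraries, on log2 TMM-scaled CPM centred within region, was 0.80 for *Dhcr7*, 0.743 for *Sqle*, 0.646 for *Fdft1*, 0.611 for *Insig1*, 0.374 for *Idi1* and -0.117 for *Lss*. This centring keeps the difference between genotypes by which *Cyp51* chose the list. Centred within region and genotype, r was 0.591 for *Dhcr7*, 0.479 for *Sqle*, 0.191 for *Fdft1*, 0.389 for *Insig1*, -0.073 for *Idi1* and -0.469 for *Lss*, with a median of 0.29. Centred within region only, the median was 0.63 over these 6, 0.46 over the 13 other enzymes, 0.32 over the 12 regulators, -0.19 over the 9 fatty acid genes and -0.01 over all 16253 genes. These medians keep the genotype difference of *Cyp51*, and those of the other lists were not taken with it removed. Centred within region and genotype, the other enzymes ran from -0.594 to 0.946 and the listed genes from -0.469 to 0.591. No ranking of the lists is drawn. *Lss* had r = 0.62 within cortex and -0.72 within cerebellum, over 8 libraries each, and 0.02 within cerebellum without the library of A391T mouse 1. That library holds the highest cerebellum value of *Cyp51* and the lowest of *Lss*, and without it the pooled r was 0.867 for *Sqle*, 0.788 for *Fdft1*, 0.703 for *Dhcr7*, 0.537 for *Insig1*, 0.39 for *Lss* and 0.218 for *Idi1*. The points share mice.

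The 10 genes most like *Cyp51* by that measure were *Rnf141* (r = 0.969), *Rbm12* (0.958), *Ppp1r3c* (0.953), *Ippk* (0.953), *2810459M11Rik* (0.944), *Naa30* (0.943), *Zfand5* (0.943), *Scd2* (0.943), *Msmo1* (0.94) and *Katna1* (0.937). *Scd2* encodes a stearoyl-CoA desaturase of the brain and *Msmo1* is the enzyme whose promoter is printed above. The malic enzyme gene *Me1* came at rank 24 with r = 0.918 and *Stard4* at rank 85 with 0.886, before the first listed gene, *Dhcr7*, at rank 716. Centred by region and genotype, 3 of the 10 were again among the 10 most like, and with each library left out in turn 5 to 10 were, the 5 without the cortex library of wild-type mouse 4 and without the cerebellum library of A391T mouse 1, where *Msmo1* fell to rank 28.

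**Figure D5:**
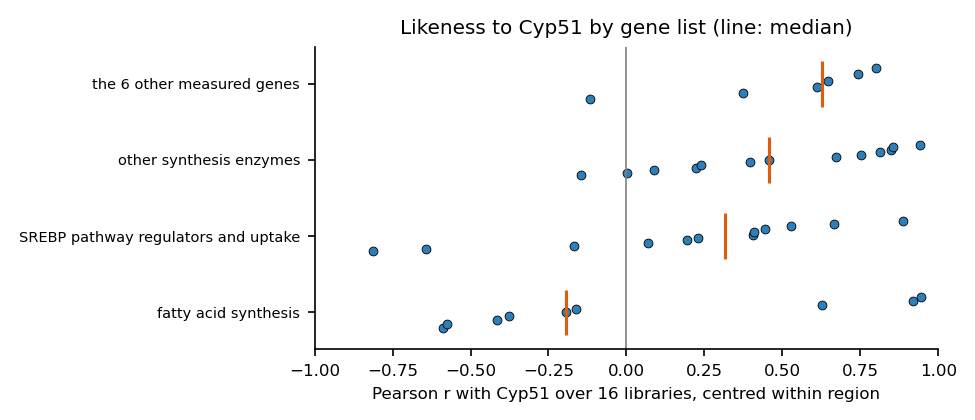
Likeness of genes to *Cyp51*, as Pearson's r across 16 libraries centred within region, for the 6 other listed genes, 13 other synthesis enzymes, 12 regulators and 9 fatty acid genes, with points for genes and a line for the median of each list. The listed genes range from -0.117 for *Lss* to 0.80 for *Dhcr7*, around a median of 0.63. This centring keeps the difference between genotypes by which *Cyp51* chose the list.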

How the data were processed

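The authors selected polyA RNA, made directional libraries, sequenced reads of 50 bp, aligned them to mm9 with STAR, took counts over Ensembl genes with HTSeq without regard to strand, and deposited the counts with no normalization. The Ensembl release is not given in the sources used here. The deposited RPKM table was used for its gene lengths and its library names. Reads on no gene (10.21% to 13.17%), ambiguous (2.2% to 2.75%) or not uniquely aligned (8.41% to 12.09%) stayed out. Depth was 20813432 to 30497206 counts on genes per library.

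Counts were fitted over all genes with edgeR 4.0.16 in R 4.3.3 (filterByExpr, TMM, quasi-likelihood test), p-values adjusted by Benjamini-Hochberg over every gene tested, and a call at 0.05. The fits were tested on simulated data. TPM came from the deposited counts and lengths. Levels were compared by exact two-sided sign-flip tests over 12 neighbouring pairs, where 14 had been planned for 8 genes. Members and lists were chosen with earlier results of these data known. The genes named are the listed members, up to 4 called genes of each other pathway list with the largest difference between regions, the 10 most like *Cyp51*, and *Slc39a8*, less a few that the rule takes and that are not reported here. Alternatives were DESeq2 1.42.0, RLE factors, library totals, other filters, a 2-fold criterion, the table's names, only the mice named alike, the mouse as a block and each library left out. By the study's methods both regions came from the same animals, and deviations from group means had correlations of -0.11 to 0.14 within a mouse and -0.19 to 0.16 between mice. Libraries of a group differed by more than sampling noise (chi-square per degree of freedom 2.93 to 69.0). Gene coordinates are NCBIM37 and promoters GRCm38.p6.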

Additional observations from a re-analysis of the deposited data

Results flagged for a closer look

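Of 28 groups of 4 libraries tested, 3 held a library far from the others by Dixon's criterion, which chance flags in about 1 in 20 groups. The level of *Sqle* in the A391T cerebellum was highest in mouse 3, at 29.5 TPM against 23.7 to 24.6 TPM in the other 3. The level of *Lss* in the A391T cerebellum was lowest in mouse 1, at 10.0 TPM against 13.5 to 13.8 TPM, in the library that also held the highest cerebellum value of *Cyp51*. The level of *Cyp51* in the wild-type cerebellum was highest in mouse 1, at 57.3 TPM against 47.5 to 47.7 TPM. Mouse 1 of the wild-type group is an A391T mouse under the names of the RPKM table.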

How the results depend on the processing

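No listed gene called between regions was called in the opposite direction under an alternative. Values near 0 did change sign, such as *Lss* between regions in wild-type mice, which ran from -0.20 to 0.0044. The *Cyp51* genotype difference in cortex changed sign under the table's names, as given below. The number of the 7 genes called between regions was 4 in wild-type, 5 in A391T and 5 over all mice, beside 67.8%, 62.8% and 74.6% of all genes. With the 2-fold criterion it was 2 in each of the 3, beside 24.7%, 24.7% and 24.8%. With only the mice named alike it was 3 in A391T mice, beside 6617 of 16234 genes, where the main fit called 10056 of 16005. With each library left out it ran from 4 to 5, from 4 to 6 and from 5 to 6. Calls over all genes then ran from 10244 to 11282, from 9271 to 11797 and from 11932 to 12876. With the mouse as a replicate block the listed genes called were 4, 5 and 5, beside 10864, 9772 and 12327 of all genes. Under the count-file names the block changed no call of a listed gene. Under the table's names the block called 5 in A391T mice against 4 without it, beside 10344 and 10320 genes, adding *Cyp51* (-0.41). The *Cyp51* call in A391T mice was lost with library totals (log2 -0.24, adjusted p = 0.12), the table's names (-0.37, 0.099) and only the mice named alike (-0.22, 0.48), and with 7 of 8 libraries left out in turn (adjusted p 0.056 to 0.098). *Dhcr7* in A391T mice was lost with only the mice named alike (-0.33, 0.11). *Lss* in wild-type mice was called without cortex library 4 (-0.17, 0.031) and *Insig1* in A391T mice without cerebellum library 1 (-0.16, 0.044). The genotype difference of *Cyp51* was -0.035 in cortex and 0.23 in cerebellum under the table's names, and with each library left out it ran from 0.167 to 0.287 and from 0.346 to 0.602. Genes whose genotype groups are apart in both regions in 1 direction numbered 44, 39 on library totals and 12 under the table's names, and the listed genes among them 1, 0 and 0. Without division by length 6 of 12 neighbouring pairs differed, and in wild-type mice alone 0 of 12, where 4 libraries allow no p under 0.125. Of the 10 genes most like *Cyp51*, 3 were shared when centred by group, and 5 to 10 with each library left out. That alternative, the r values without 1 library and the sums without *Cyp51* were chosen after seeing the data. Apart from the construction of an alternative, such as fewer mice, the cause was not tested. Counts of 10 to 34 limit *Idi1*.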
